A study of Mus musculus with 6 samples.

Results

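This account is about 10 long noncoding RNA genes, among 53421 rows of a gene count table, in cultured mouse cerebellar granule cells (GCs). Meg3, Rian, Mirg and H19 are imprinted, Malat1, Neat1 and Miat are retained in the nucleus, and Rmst, Snhg11 and Pantr1 are known from neural tissue. The 10 genes were chosen by name, with results of the same contrast on the same libraries known. Their fold changes and adjusted p-values between the groups are therefore given as a description and support nothing. All 10 passed the filter on low counts, which kept 17214 genes for the test.

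YTHDF2 is a reader of N6-methyladenosine (m6A), a mark on RNA, and it promotes the decay of marked transcripts in the cytoplasm. The study asked which RNAs change in level when it is knocked down (KD) in GCs. GCs from cerebella of C57BL/6 mice, given as postnatal day 8, were grown in a serum-free neuronal medium and infected with a lentivirus carrying the hairpin shYthdf2 or the control hairpin shCtrl, followed by puromycin selection. Both groups carried a lentivirus, and there were 3 libraries a group, replicates 1, 2 and 4 by their library names, with 17246821 to 21546595 counts each. By their names the KD libraries were made with a single hairpin sequence, and no second hairpin checks its off-target effects. The library names and the sample titles contradict each other, since the titles call the libraries with the shYthdf2 names wild type and those with the control names knockdown. Groups here follow the library names, and every direction below would invert if the titles were right.

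Long noncoding RNAs are transcripts without a long open reading frame that often act, or are retained, where they are made. Meg3, Rian and Mirg are read from the maternal chromosome in the Dlk1-Dio3 domain, and H19 from the maternal chromosome next to the paternally expressed growth factor gene Igf2, so imprinted RNAs of both domains share control regions with protein-coding neighbours. The mice were of an inbred strain, and the parental origin of a read was not measured. Malat1 sits in nuclear speckles, Neat1 is the scaffold of paraspeckles, and Miat (also called Gomafu) forms its own nuclear bodies in neurons. Rmst partners SOX2 in neurogenesis, Snhg11 hosts small nucleolar RNAs, and Pantr1 lies beside the POU factor gene Pou3f3.

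Several of these genes are read through as hosts of miRNAs, which is why mature sequences are shown first. In the RefSeq table of GRCm38.p6, 41 mature miRNAs of 22 miRNA genes lie on the same strand inside Meg3, Rian, Mirg, H19 or Rmst. Mirg holds 26 of them, Rian 6, Rmst 4, Meg3 3 and H19 2. In H19 and Meg3 they lie in exons, in Rian and Rmst in introns, and in Mirg 16 lie in introns, 8 in exons and 2 partly in an exon. Capitals mark the seed, bases 2 to 8, which pairs with targets. The first 4 lie in Rmst, the member with the largest fold change, and next come both arms from H19. The last pair are from Mirg and are the only members' miRNAs in the table that share a seed, GGUUGCC, with each other, and no other of the table's 1679 mature miRNAs has it.
mmu-miR-135a-5p: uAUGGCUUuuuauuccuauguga
mmu-miR-135a-2-3p: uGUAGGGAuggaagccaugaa
mmu-miR-1251-5p: aCUCUAGCugccaaaggcgcu
mmu-miR-1251-3p: cGCUUUGCucagccaguguag
mmu-miR-675-5p: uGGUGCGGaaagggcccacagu
mmu-miR-675-3p: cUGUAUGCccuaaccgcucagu
mmu-miR-453: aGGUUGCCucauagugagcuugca
mmu-miR-496a-5p: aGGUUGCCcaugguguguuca
In GRCm38, miR-135a-5p lies at chr10:92072141-92072163 and miR-1251-5p at chr10:92137190-92137210, both on the minus strand in introns of Rmst. miR-675-5p lies at chr7:142577112-142577133, on the minus strand in an exon of H19, and miR-453 and miR-496a-5p lie at chr12:109735669-109735692 and chr12:109739132-109739152, on the plus strand in introns of Mirg. Mature miRNAs were not measured by these libraries. The annotated miRNA genes inside the members had at most 6 counts in any library.

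The letters GGACT are the commonest sequence at which m6A is placed, and how often they occur in a member is shown because YTHDF2 reads that mark. The search used only the transcript's own strand of the longest transcript in GENCODE M21. Of 16613 genes tested that had a transcript, 89.3% held the letters at least once, with a median of 1.01 per kb, and the 10 members had a median of 1.65 per kb. Pantr1 had the most, 3.36 per kb, followed by H19 with 2.62, Miat with 2.07, Snhg11 with 1.88, Rmst with 1.73, Mirg with 1.57, Malat1 with 1.29, Neat1 with 1.11 and Meg3 with 1.10, and Rian had the fewest, 0.247. A match is a run of letters, and m6A itself was not measured. All 5 matches of Rmst, whose 2891-base transcript has 10 exons, and both of Rian, in 8089 bases, are given with 8 bases either side, the letters GGACT in capitals. Each name ends in the position in the transcript at which the match starts.
Rmst 126: tttagcatGGACTatcctcag
Rmst 287: gcccgtggGGACTgagggacc
Rmst 1877: ccgaaaatGGACTtggataac
Rmst 2475: gtgacttgGGACTggccttcc
Rmst 2658: acggaataGGACTctgtattt
Rian 4496: gaagaggaGGACTgatgttgg
Rian 6524: ccagtcctGGACTtgccctaa
In GRCm38 the last match of Rmst, in exon 10, lies at chr10:92081967-92081987 on the minus strand, and the last of Rian, in exon 2, at chr12:109653436-109653456 on the plus strand. The stretch shown around the first match of Rmst spans an exon junction.

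Before the results it has to be said that replicate 2 stood apart in both groups. Over all genes tested, the median absolute log2 difference between replicates 1 and 4 was 0.0962 in shCtrl and 0.0989 in shYthdf2, and between either of them and replicate 2 it was 0.375 to 0.376 in shCtrl and 0.318 to 0.319 in shYthdf2. Replicates 1 and 4 were not the same library, since their counts differed by more than sampling noise, with a mean chi-square per gene of 4.66 in shCtrl and 3.35 in shYthdf2 where sampling noise alone gives about 1. Ythdf2 itself, the gene targeted, had normalized counts (scaled by TMM to a common library size) of 501, 402 and 501 in shYthdf2 replicates 1, 2 and 4, and of 618, 841 and 628 in shCtrl. The groups did not overlap, and the KD mean was 67.3% of the control mean, which is the direction the library names give. By replicate number the log2 difference of Ythdf2 was -0.30, -1.06 and -0.33 in replicates 1, 2 and 4. Its log2 fold change was -0.57 (SE 0.16, adjusted p = 0.125 by edgeR), which did not pass the threshold of 0.05, and an exact permutation test gave p = 0.1, the smallest that 3 against 3 allows.

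The members took up between 0.117% and 0.413% of a library's counts, and nearly all of that was Malat1 and Miat. Compared per length, as the mean normalized count of shCtrl per kb of merged exons, Malat1 was at 4833, higher than 99.6% of genes tested, and Miat at 765, higher than 92.6%. Far below came Mirg at 34.4, Pantr1 at 16.0, H19 at 14.6, Neat1 at 8.82, Rmst at 6.91, Snhg11 at 4.83, Rian at 1.66 and Meg3 at 1.43. In this order Pantr1 and H19, H19 and Neat1, Neat1 and Rmst, and Rian and Meg3 were closer to each other than the SD over the control libraries of the more variable gene. With the longest transcript as the length, Mirg stood at 65.7, Pantr1 at 34.2, Rmst at 17.7 and Rian at 3.75 per kb, each over 1.5 times its first value, and Rmst then stood above H19 at 15.7.

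**Figure D1:**
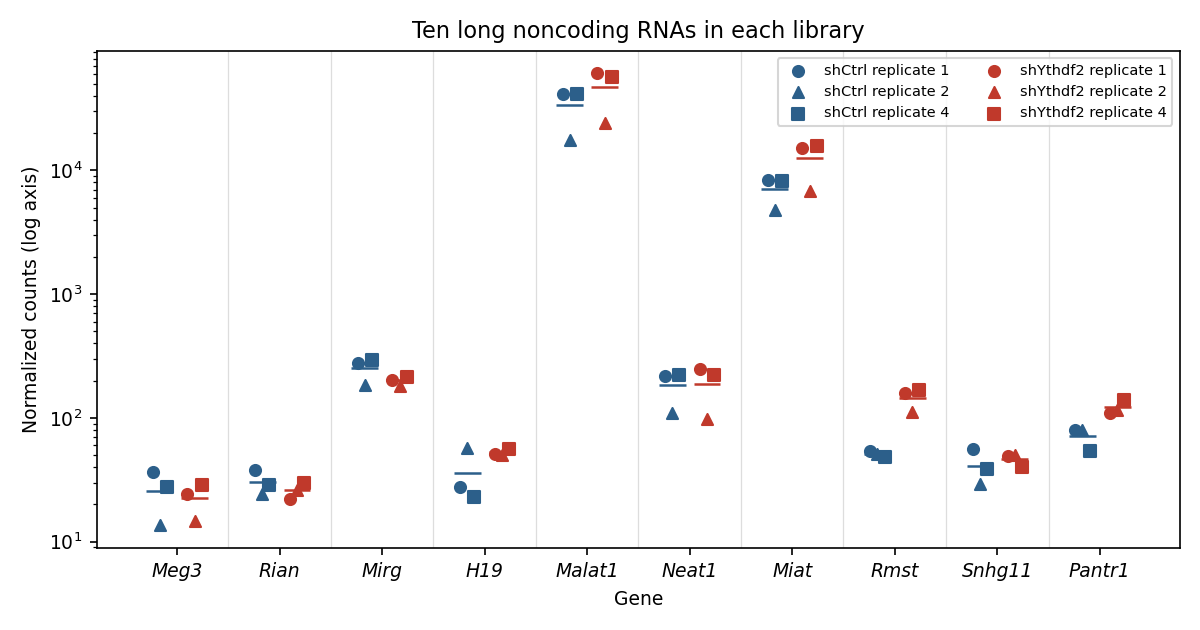
Normalized counts, on a log axis, of the 10 genes in each of the 6 libraries; blue is shCtrl, red is shYthdf2, the shape gives the replicate number and each short line is the mean of 3 libraries. Red and blue points do not mix for Rmst and Pantr1, and the triangles of replicate 2 sit lowest in both colours for Malat1, Neat1, Miat, Meg3 and Mirg.

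In KD the mean normalized count of Rmst was 285% of control, of Miat 177%, of Pantr1 170%, of H19 147% and of Malat1 140%. Snhg11 was at 113%, Neat1 at 103%, and the RNAs of the Dlk1-Dio3 domain at 79.9% (Mirg), 86.9% (Meg3) and 85.6% (Rian). On the log2 scale, KD against the control of replicates 1, 2 and 4 was -0.59, 0.10 and 0.06 for Meg3. For Rian it was -0.78, 0.11 and 0.06, so both were lower in KD in replicate 1 alone. For Malat1 and Miat the KD library was above the control of the same replicate number each time, although the groups as a whole overlapped. By edgeR's quasi-likelihood test on all genes, 104 of 17214 genes passed an adjusted p of 0.05 (0.604%), and among the members Rmst alone did. The groups did not overlap for Rmst and Pantr1, 2 of 10 members, beside 26.0% of all genes tested. At an unadjusted p under 0.05 there were 3 members, Rmst, Pantr1 and Miat, beside 20.1% of all genes. Of the members, 7 had a positive log2 fold change and 3 a negative one. Their median was 0.33 beside 0.01 over all genes tested, of which 50.8% had a positive value. Over the 1343 genes annotated as long noncoding and tested, the median was 0.14 and 61.7% were positive. DESeq2 passed 8.50% of the genes to which it gave an adjusted p, and of the members it passed Rmst alone. The difference had the same sign in all 3 replicate numbers for 5 members, Mirg on the lower side and Malat1, Miat, Rmst and Pantr1 on the higher, beside 53.9% of all genes. As the contrast was known when the members were named, nothing is read from these shares.

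These values come from a fit with the group alone. The deviations of same-numbered libraries from their group means were correlated, so a fit with the replicate number as a pairing is given beside it where a call differs. Deviations within a group cancel out, so a replicate 2 apart in both groups can by itself correlate replicates 1 and 4 too. Libraries of different numbers were not compared in this way. Whether replicates 1 and 4 are paired across the groups was therefore not tested. When the replicate number entered the fit as a block, 232 genes passed (1.35%), and 3 members did, Rmst (adjusted p = 0.0489), Miat (0.0457) and Malat1 (0.0496). With only a separate term for replicate 2, an analysis chosen after the data had been seen, 3799 genes passed (22.1%), and Pantr1 (0.0470) joined those 3 members. Without replicate 2, which leaves 2 libraries a group that differ little, 9186 genes passed (52.7%), with 6 members, namely Rmst, Pantr1, Miat, Malat1 and H19 on the higher side and Mirg on the lower. With replicate 1 or replicate 4 of either group left out, 0 genes passed by edgeR, the 1 tool run there, and 1986 to 2120 had an unadjusted p under 0.05. Dropping the shCtrl library of replicate 2 gave 3239 genes, and dropping the shYthdf2 library gave 829. The study calls its replicates biological, but the labels do not say which cultures they came from, so the p-values measure the spread between these libraries.

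**Figure D2:**
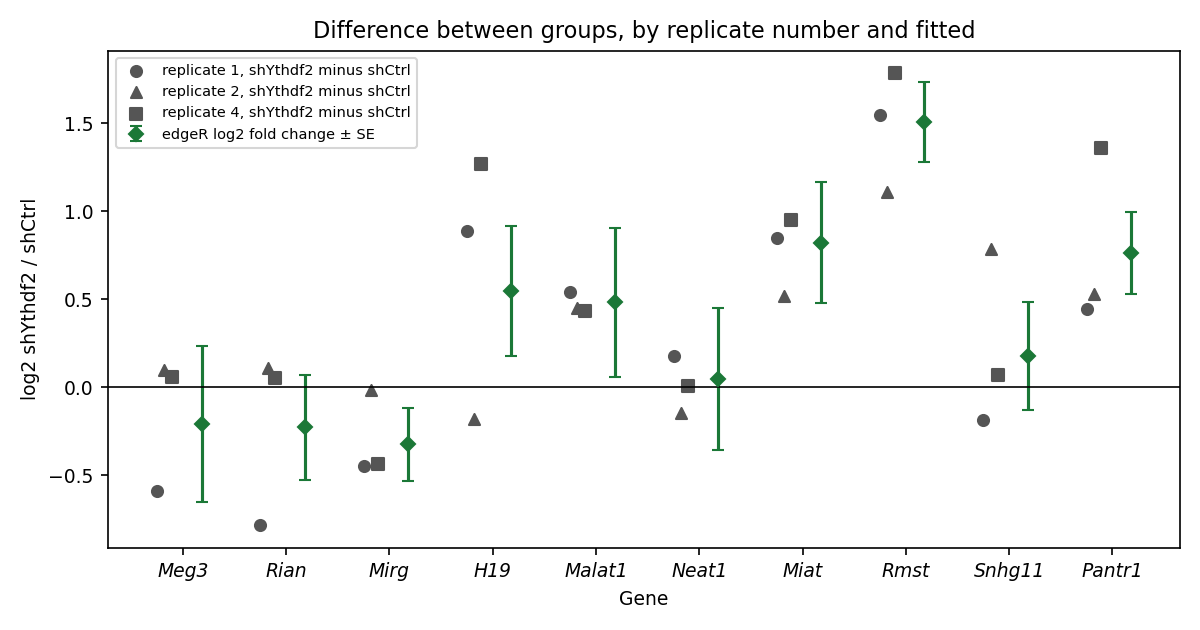
Difference on the log2 scale between shYthdf2 and shCtrl for each of the 10 genes; grey points are the libraries of replicate 1, 2 or 4 compared with each other and the green diamond with its bar is edgeR's log2 fold change ± SE over all 6 libraries. The 3 grey points of Malat1 lie between 0.44 and 0.54 although its SE is 0.42, and those of H19 fall on both sides of 0.

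Among the imprinted genes of the Dlk1-Dio3 domain, Meg3, a maternally expressed RNA with reported growth-suppressing activity, was barely detected. Its counts were 23, 15 and 27 in shYthdf2 and 41, 14 and 25 in shCtrl, where Malat1 had 18189 to 58204. Normalized, these were 24.0, 14.5 and 28.7 against 36.4, 13.6 and 27.5, so replicate 2 was lowest in both groups and the groups overlapped. Its log2 fold change was -0.21 with a 95% interval of -1.24 to 0.82 (adjusted p = 0.825 by edgeR).

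Rian, which hosts small nucleolar RNAs and miRNAs, was as sparse, with normalized counts of 22.0, 26.2 and 29.7 in shYthdf2 and 38.1, 24.2 and 28.6 in shCtrl. The control of replicate 1 was the highest library and the others overlapped. The interval of its log2 fold change of -0.23 ran from -0.93 to 0.47. Mirg, the host of the largest miRNA cluster of the domain, was the best measured of the Dlk1-Dio3 RNAs, at 204, 182 and 215 normalized counts in shYthdf2 and 278, 184 and 291 in shCtrl. Replicates 1 and 4 were lower in KD by 0.44 and 0.43 on the log2 scale, and in replicate 2 the libraries were level, at -0.01. The fit gave -0.32 (SE 0.21, adjusted p = 0.425 by edgeR), and without replicate 2 it gave -0.44 (SE 0.11, adjusted p = 0.00277 by edgeR). Leaving out only replicate 2 of shCtrl gave -0.50 (adjusted p = 0.0472 by edgeR).

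The protein-coding genes of the same domain, which are read from the paternal chromosome, were not detected. Dlk1, a Notch-related ligand, and Rtl1, a retrotransposon-derived gene, were at 0 counts in every library, which allows up to 3 counts a library, and Dio3, a deiodinase of thyroid hormone, had at most 1 count. Rian was 9.81% to 14.4% of Mirg by normalized counts in the 6 libraries and Meg3 7.37% to 13.3%, with overlapping groups. No fold is given for the 3 coding genes, since both groups were at or under the floor.

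H19, an imprinted RNA that hosts miR-675, did not separate the groups, but its control libraries differed greatly. Normalized counts were 51.2, 50.4 and 56.3 in shYthdf2, and 27.5, 57.2 and 23.1 in shCtrl. Replicate 2 of shCtrl was thus the highest of all 6 libraries, at 226% of the mean of its replicates 1 and 4, and in shYthdf2 replicate 2 was at 93.8%. Over all libraries H19 had a log2 fold change of 0.55 (SE 0.37, adjusted p = 0.453 by edgeR), and without replicate 2 it was 1.07 (SE 0.26, adjusted p = 0.00254 by edgeR). Dropping only the control library of replicate 2 gave 1.05 (adjusted p = 0.0322 by edgeR), and dropping the control of replicate 1 or 4 gave 0.38 and 0.31, neither past the threshold.

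Igf2, the growth factor gene 72623 bases from H19 and expressed from the opposite parental chromosome, had the same order among controls. Its normalized counts were 548, 637 and 558 in shYthdf2, and 224, 521 and 197 in shCtrl. The KD libraries were all above the controls, with a log2 fold change of 0.89 (SE 0.35, adjusted p = 0.221 by edgeR), which missed the threshold. Dropping the control library of replicate 2 gave 1.47 (adjusted p = 0.00202 by edgeR), dropping both libraries of replicate 2 gave 1.39 (6.8e-09), and the separate term for replicate 2 gave 1.01 (0.0296). Mrpl23, a mitochondrial ribosomal protein gene on the other side of H19, had a log2 fold change of -0.15 (SE 0.21).

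The summed markers of several other cell types were, like H19 and Igf2, highest among the controls in replicate 2. The sum of the ependymal and choroid plexus markers went the other way, lowest in replicate 2 of both groups. They summed to 1266, 495 and 1377 in shYthdf2 replicates 1, 2 and 4, and to 1248, 323 and 1339 in shCtrl. Most of that drop was in Ttr, at 738, 16.5 and 774 in shYthdf2 and 796, 27.1 and 890 in shCtrl. Foxj1 and Ccdc153 were also lowest in replicate 2 of both groups. Folr1 was highest in replicate 2 among the controls, at 21.3, 33.9 and 11.0. The 9 oligodendrocyte lineage markers summed to 15044, 19436 and 15417 normalized counts in shYthdf2 replicates 1, 2 and 4, and to 5789, 19713 and 5502 in shCtrl. All 9 had a positive log2 fold change and none passed the threshold. The 6 meningeal fibroblast markers, which share Pdgfra with that list, summed to 5140, 11154 and 5212 against 3270, 9614 and 3254, and all 6 had a positive log2 fold change, none past the threshold. In KD the fibroblast sum was highest in replicate 2, where H19 was level with the other KD libraries. The 9 astrocyte and Bergmann glia markers summed to 13685, 12480 and 13528 in shYthdf2 and to 9044, 15126 and 9175 in shCtrl, with 8 of 9 higher, and the microglia markers to 1165, 443 and 1232 against 260, 889 and 214, with 7 of 7 tested higher, and none of either list passed. The astrocyte marker that fell, Slc1a2, had a log2 fold change of -1.44 (SE 0.25, adjusted p = 0.0552 by edgeR). Every KD library was below every control for Slc1a2, and among the controls it was lowest in replicate 2. P2ry12, a microglial receptor, was at 0 in shCtrl replicates 1 and 4 and under the filter. No other marker of these lists was at 0 in any library. Whether these cells carried the H19 or Igf2 counts was not tested, and in bulk libraries fewer cells of a type and less RNA per cell cannot be told apart.

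**Figure D3:**
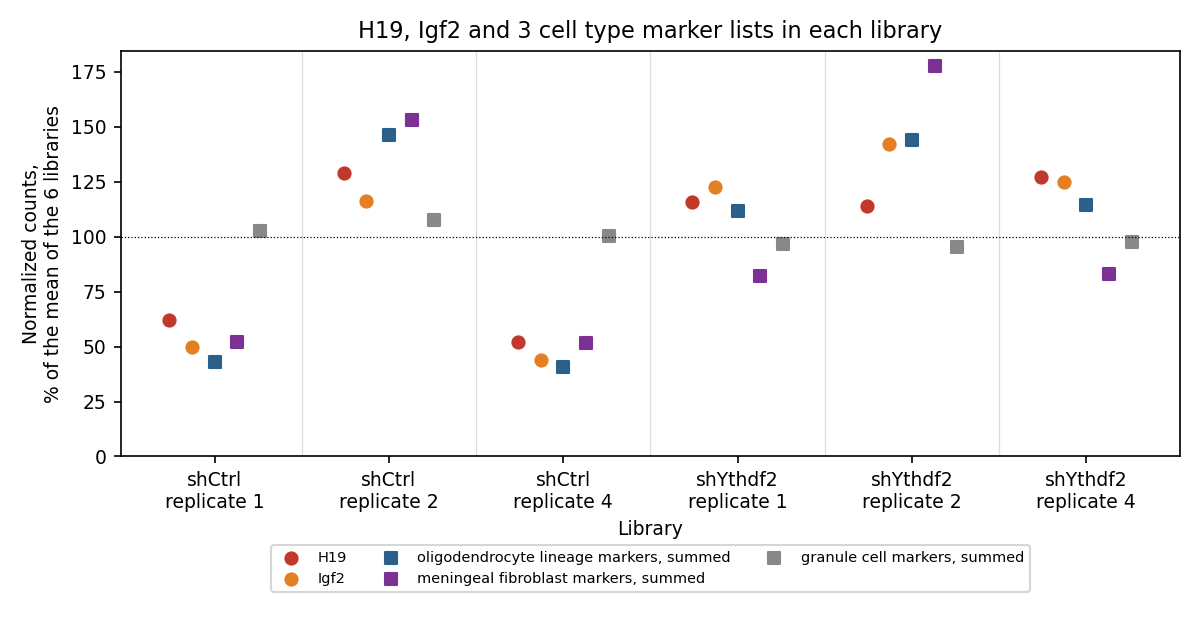
Normalized counts of H19 and Igf2 (circles) and the summed counts of oligodendrocyte, fibroblast and granule cell markers (squares) in each library, as a percentage of the mean of the 6 libraries. In shCtrl replicates 1 and 4, H19, Igf2, the oligodendrocyte and the fibroblast markers are all under 75%, and in shCtrl replicate 2 all are over 100%, while the granule cell markers stay near 100% throughout.

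The 3 nuclear-retained genes shared 1 feature, a low replicate 2. Malat1 in replicate 2 was at 42.1% of the mean of replicates 1 and 4 in shCtrl and at 41.0% in shYthdf2, Neat1 at 49.2% and 41.6%, and Miat at 57.5% and 44.3%. A replicate 2 under 60% in both groups was seen in 5.83% of all genes tested. Meg3, at 42.5% and 55.2%, was the only other member with it. The 1343 genes annotated as long noncoding and tested had a median log2 ratio of replicate 2 to the others of -0.42 in shCtrl and -0.37 in shYthdf2, beside 0.04 in both groups over 13720 protein-coding genes. RNA quality was not measured in these files, and what set replicate 2 apart was not tested.

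**Figure D4:**
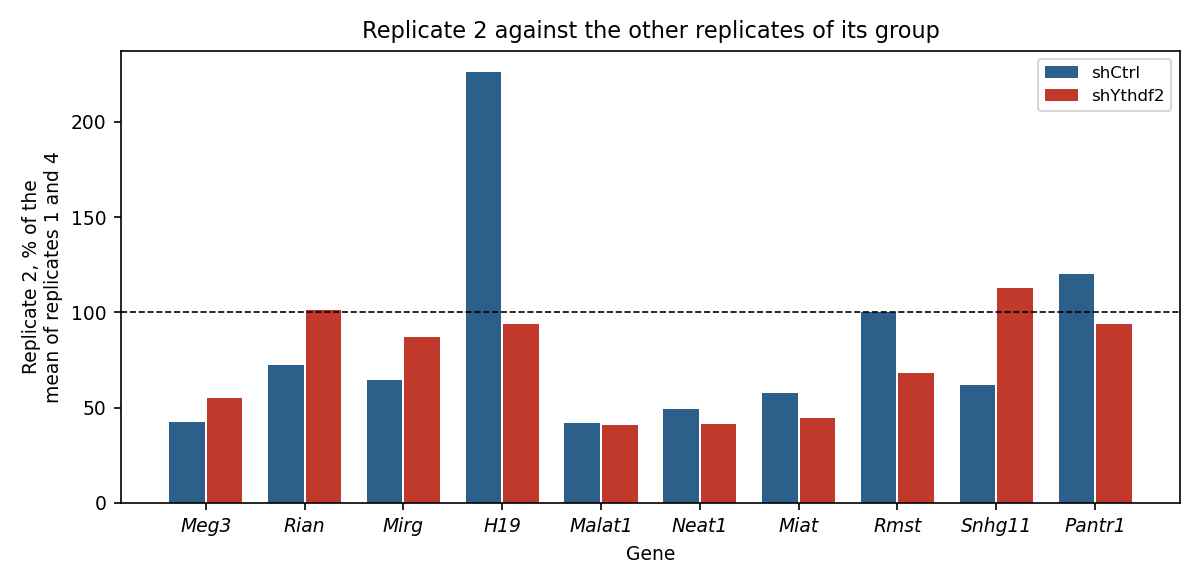
Normalized count of replicate 2 as a percentage of the mean of replicates 1 and 4 of the same group, for the 10 genes; blue bars are shCtrl, red bars shYthdf2, and the dashed line marks 100%. Malat1, Neat1, Miat and Meg3 have both bars under 60%, and H19 has a blue bar at 226%.

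Malat1, an RNA of nuclear speckles, where splicing factors are stored, was the most abundant member. Its normalized counts were 60858, 24082 and 56561 in shYthdf2, and 41817, 17620 and 41809 in shCtrl. The KD library was above the control of its own number each time, by 0.54, 0.45 and 0.44 on the log2 scale, but KD replicate 2 lay below 2 of the 3 controls. The unblocked log2 fold change was 0.48 (SE 0.42, adjusted p = 0.570 by edgeR) and the blocked one 0.48 (SE 0.07, adjusted p = 0.0496 by edgeR), so the size stayed and the error shrank. Without the block, the value ranged from 0.17 when the control library of replicate 2 was dropped to 0.80 when its KD library was, and neither passed.

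Miat, a neuronal nuclear RNA that binds splicing factors, had normalized counts of 15146, 6836 and 15717 in shYthdf2, and of 8426, 4761 and 8144 in shCtrl. KD was the higher in each replicate number, by 0.85, 0.52 and 0.95, and KD replicate 2 again lay under the controls of replicates 1 and 4. Without the block the log2 fold change was 0.82 with a 95% interval of 0.02 to 1.63 (adjusted p = 0.241 by edgeR), and with it 0.77 (SE 0.10, adjusted p = 0.0457 by edgeR).

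Neat1, which builds paraspeckles, was level between the groups. Its normalized counts were 248, 97.9 and 223 in shYthdf2, and 219, 108 and 222 in shCtrl, and the sign of the difference changed with the replicate number. The log2 fold change of 0.05 had an interval of -0.89 to 0.99, and with the block it was 0.02 (SE 0.13). Its sign also turned when single libraries were left out. Relative to Malat1, its neighbour on chromosome 19, Neat1 made up 0.407%, 0.407% and 0.394% in shYthdf2, and 0.524%, 0.616% and 0.531% in shCtrl, without overlap (exact permutation p = 0.1, the smallest possible for 3 against 3). This ratio was formed after the values had been seen. The ratio of Miat to Malat1 was 24.9%, 28.4% and 27.8% in shYthdf2 and 20.1%, 27.0% and 19.5% in shCtrl, and these overlapped.

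Frmd8, the coding gene next to Neat1, had a log2 fold change of -0.16 (SE 0.15). By Miat, the antisense-strand gene Gm26953 overlaps it and had at most 26 counts in a library. Whether reads were counted by strand is not given in the sources used here, so its reads and those of Miat cannot be told apart.

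Rmst, an RNA of the neural lineage, had the largest difference of the 10. Its normalized counts were 159, 111 and 168 in shYthdf2, and 54.1, 51.3 and 48.3 in shCtrl. Every KD library was above every control, and the controls were tight where the KD libraries spread, with replicate 2 the lowest of them. The means were 146 ± 30.2 and 51.3 ± 2.89 (SD, n = 3), a log2 fold change of 1.51 (SE 0.23, 95% interval 0.97 to 2.04, adjusted p = 0.0496 by edgeR). By replicate number the difference was 1.55, 1.11 and 1.78. Counts were small, 44 to 158 a library, and the adjusted p lay just inside the threshold. It was 0.0557 with limma-voom and 9.4e-06 with DESeq2. With 1 library left out, the log2 fold change stayed between 1.40 and 1.67, and the call was lost when the control library of replicate 1 or 4 was dropped (adjusted p = 0.258 and 0.241 by edgeR) or the KD library of replicate 1 or 4 (0.286 and 0.269).

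Gm27544 (misc_RNA) lies within Rmst on the same strand at chr10:92071661-92071815 in GRCm38, and had 39, 47 and 30 counts in shYthdf2 and 10, 12 and 7 in shCtrl. Its log2 fold change was 2.05 (SE 0.32, adjusted p = 0.0496 by edgeR). Its call was lost when replicate 1 or 4 of either group was left out, where 0 of all genes passed. How reads of the shared stretch were assigned is not given in the sources used here, so this is not taken as a second measurement of Rmst. Of the 11 genes that overlap Rmst, it was the only one above 2 counts. Neither coding neighbour passed, with Tmpo 889722 and Nedd1 519576 bases away. Tmpo, of the nuclear lamina, was at -0.15 (SE 0.12) and Nedd1, of the centrosome, at 0.37 (SE 0.19) on the log2 scale.

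Pantr1, a noncoding RNA of neural progenitors, had normalized counts of 109, 116 and 139 in shYthdf2, and 79.8, 80.4 and 53.8 in shCtrl. The groups did not overlap. Its log2 fold change was 0.76 with an interval of 0.21 to 1.31 (adjusted p = 0.142 by edgeR), and it varied by replicate number from 0.44 to 1.36. Pou3f3, the neural POU factor gene that starts 926 bases from it on the other strand, had 1363 ± 146 normalized counts in shYthdf2 and 1451 ± 102 (SD, n = 3) in shCtrl, a log2 fold change of -0.09 (SE 0.11).

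Snhg11, expressed in neurons and annotated as protein-coding in GENCODE M21, had normalized counts of 49.1, 50.4 and 40.3 in shYthdf2, and 55.9, 29.1 and 38.4 in shCtrl. The groups overlapped, and the interval of its log2 fold change of 0.18 ran from -0.54 to 0.89. Its neighbours Ralgapb and Lbp were at -0.11 (SE 0.12) and 0.36 (SE 0.33).

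Summed markers of GABAergic interneurons and Purkinje cells were, like Rmst and Pantr1, above every control in every KD library. Among the KD libraries both sums were highest in replicate 2, where Rmst was lowest. The 8 GABAergic interneuron markers summed to 9606, 11114 and 9583 in shYthdf2, against 8398, 8723 and 8324 in shCtrl, with 6 of 8 higher, and the 7 Purkinje cell markers to 4331, 4556 and 4350 against 3044, 3452 and 3089, with 4 of 7 higher. Neither pair of sums overlapped. The Purkinje markers Pcp2 and Calb1 had log2 fold changes of -0.22 and -0.45, and Rora was at 0.61 (adjusted p = 0.0506 by edgeR). Of the 4 unipolar brush cell markers, 1 was higher and 3 lower, with overlapping sums. Eomes, the lowest of them, was at -1.80 (SE 0.29, adjusted p = 0.0502 by edgeR), and every KD library was below every control. Of the proliferating progenitor markers, 6 of 6 tested were higher, again with overlapping sums. None of the lists' markers was at 0 in all libraries, and none passed the threshold. The 10 granule cell markers were the most abundant list, as the label says, at 140464 to 143573 in shYthdf2 and 147553 to 158617 in shCtrl. Every KD sum was below every control sum, with 5 markers higher and 5 lower. Neurod1 (-0.32), Cbln1 (-0.64) and Barhl1 (-0.61) were each below every control in every KD library, and Rbfox3 (0.05) was above. Over all 75 marker genes tested, 59 were higher and 0 passed by edgeR, with 13 at an unadjusted p under 0.05 and 9 by DESeq2, to be read beside the shares of all genes, 50.8% positive, 20.1% at that p and 8.50% by DESeq2. Their part in the values of Rmst and Pantr1 was not tested.

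For the member with the largest difference in each role, the genes with the most similar course over the 6 libraries were sought by the root mean square (RMS) of the difference in centred log2 normalized counts. Nearest to H19 were Nxph4 (RMS 0.0513), Rgl1 (0.0541) and Tril (0.0636). Miat had Aspdh (RMS 0.0745), Thbs3 (0.0939) and Plekhg4 (0.0945). Rmst had no gene as close, and its nearest were Gm47573 (RMS 0.127), Gm29521 (0.155) and Gm37460 (0.174), with log2 fold changes of 1.32, 1.36 and 1.24, none past the threshold.

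Other genes of the same kinds were taken from lists of imprinted genes, long noncoding RNAs and partner proteins, drawn up with earlier results of these data known. Their counts are to be read beside the shares of all genes just given. Of 52 other imprinted genes, 43 were tested and 0 passed by edgeR, with 11 at an unadjusted p under 0.05 and 4 by DESeq2. Values were positive in 21 and negative in 22 on the log2 scale, with a median of -0.01. Among those with a mean of at least 50 normalized counts, the lower end held Plagl1, a zinc finger gene, at -1.28 (SE 0.43), Magel2 of the Snrpn domain at -0.96 (SE 0.30) and Impact at -0.65 (SE 0.24). The upper end of the same genes held Igf2, Nnat, which encodes neuronatin, at 0.50 (SE 0.32), and Grb10, an adaptor of growth factor receptors, at 0.48 (SE 0.25). With the replicate block Plagl1 passed, at -1.21 (SE 0.15, adjusted p = 0.0450 by edgeR), the 1 gene of the list to do so. Dropping the control library of replicate 2 brought Plagl1 (-1.63), Magel2 (-1.24), Impact (-0.88), Nnat (1.02) and Igf2 past the threshold. Magel2 was below every control in every KD library, at 97.9 ± 9.49 against 191 ± 69.4 normalized counts (SD, n = 3).

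Of 53 other long noncoding RNAs listed, 36 were tested and 0 passed by edgeR or DESeq2, with 8 at an unadjusted p under 0.05. Of these, 13 had a positive and 23 a negative log2 fold change, with a median of -0.05. Of the small nucleolar RNA hosts, 11 of 13 had a negative value, with a median of -0.21, and Gas5, a growth-arrest RNA, had 630 ± 53.9 normalized counts in shYthdf2 and 816 ± 72.3 (SD, n = 3) in shCtrl, without overlap, a log2 fold change of -0.37 (SE 0.12, adjusted p = 0.151 by edgeR). Snhg8 was at -0.46 (SE 0.18), and the highest was Snhg14, an imprinted host, at 0.43 (SE 0.25). Of 6 miRNA hosts, 4 were positive, with Mir124a-1hg and Mir124-2hg, hosts of the neuronal miR-124, at 0.57 (SE 0.22) and 0.48 (SE 0.18), and Mir22hg at -0.69 (SE 0.27). Dropping the control library of replicate 2 brought Mir22hg (-0.92) and Gas5 (-0.44) past the threshold, and dropping the KD library of replicate 2 brought Mir124a-1hg (0.78). Over all 1343 long noncoding genes tested, 61.7% had a positive log2 fold change, 4 passed as higher and 0 as lower, and the median was 0.14. Protein-coding genes had 49.2% positive, 31 passed as higher and 61 as lower.

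The proteins that these RNAs work with were counted last. Of 42 genes listed for paraspeckles, nuclear speckles, Miat or Rmst binding and the Polycomb complex PRC2, 41 were tested and 0 passed by edgeR, with 10 at an unadjusted p under 0.05 and 2 by DESeq2. Positive log2 fold changes numbered 25 and negative ones 16, with a median of 0.13. Rbm14, a paraspeckle protein needed for the body to form, had 807 ± 43.8 normalized counts in shYthdf2 and 1398 ± 331 (SD, n = 3) in shCtrl, without overlap, and a log2 fold change of -0.79 (SE 0.18, adjusted p = 0.0824 by edgeR). Dazap1 was at -0.42 (SE 0.11) and Celf3, which binds Miat, at -0.54 (SE 0.25). Srsf10 (0.36, SE 0.11), the speckle splicing factor Srsf2 (0.41, SE 0.15) and Sox2, the partner of Rmst (0.41, SE 0.31), were the highest with a mean of at least 50 normalized counts. Dropping the control library of replicate 2 brought all 6 named genes past the threshold, with Sox2 at 0.81 and Srsf2 at 0.55, and with libraries left out Sox2 ranged from 0.19 to 0.95.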

How the data were processed

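The authors deposited raw counts of reads per gene, 6 columns in a single table, with no normalization. By the study's methods HISAT and TopHat2 placed the reads on GRCm38 and HTSeq counted them per gene, and the submitters' processing notes instead name Bowtie 0.12.2 and mm9. Which made the table, and whether strand was used, is not given in the sources used here. The members, the gene lists and the named-gene rule were chosen with earlier results of these data known.

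Gene IDs were matched to GENCODE M21. Genes were filtered with filterByExpr (minimum count 10, total 15), scaled by TMM and tested with edgeR 4.0.16 (R 4.3.3) by the quasi-likelihood test over all 17214 genes kept, with Benjamini-Hochberg adjustment and a threshold of 0.05. Normalized counts are counts scaled to a common effective library size, and differences between single libraries were taken as log2 after adding 0.5. The design had the group only. Same-numbered libraries deviated together (correlations 0.250, 0.361 and 0.321 for replicates 1, 2 and 4). Correlations between libraries of different numbers were not computed. The fit with a replicate block is given beside a named gene or count where it changes a call. Alternatives used DESeq2 1.42.0, limma 3.58.1 (voom), other scaling and filters, and each library left out. Scripts were tested on simulated data, in which edgeR recovered 46.8% of 2-fold and 86.3% of 4-fold changes, with 3.65% of calls false. The simulated libraries were drawn independently, without deviations shared by replicate number as in these data. Named besides the members were Ythdf2, overlapping and nearest coding genes, the 3 highest and 3 lowest genes of each list with a mean of at least 50 normalized counts, summed marker lists, and the 3 most similar genes. Single markers and Gm26953 or Gm27544 are named by their place in those lists or by position. Some genes covered by this rule are not reported here.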

Additional observations from a re-analysis of the deposited data

How the results depend on the processing

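The number of members past the threshold was 1 with RLE size factors, library size alone, DESeq2 and either filter, 0 with limma-voom, 3 with the replicate block, 4 with a separate term for replicate 2 (chosen after seeing the data), and 0 to 6 when libraries were left out: 0 without replicate 1 or 4 of either group, 3 without shCtrl replicate 2 and 6 without both libraries of replicate 2. For all genes, the count of 104 became 1321 with DESeq2, 24 with limma-voom, 639 with no filter on low counts, 232 with the replicate block, 3799 with the separate term, and 0 to 9186 when libraries were left out (3239 without shCtrl replicate 2, 829 without shYthdf2 replicate 2). No other imprinted gene passed in the main analysis, against 4 with DESeq2, 1 with no filter, 1 with the replicate block, 13 with the separate term and 0 to 28 with libraries left out. For the other long noncoding RNAs it was 9 with the separate term and 0 to 21 with libraries left out. For the partner proteins it was 2 with DESeq2, 1 with no filter, 15 with the separate term and 0 to 33 with libraries left out. For the cell type markers it was 1 with library size alone, 9 with DESeq2, 5 with no filter, 2 with at least 10 counts in every library, 2 with the replicate block, 26 with the separate term and 0 to 53 with libraries left out. Ythdf2 passed with DESeq2 (log2 fold change -0.58), with the separate term (-0.56) and without replicate 2 (-0.32), and its range with libraries left out was -0.66 to -0.32. The cause of these moves was not tested.

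The sign turned for Neat1 with limma-voom (-6.0e-05), without shCtrl replicate 2 (-0.22), without shYthdf2 replicate 1 (-0.19) and without shYthdf2 replicate 4 (-0.08), for Meg3 without shCtrl replicate 1 (0.13) and without shYthdf2 replicate 2 (0.03), for Snhg11 without shCtrl replicate 2 (-0.02) and without replicate 2 (-0.10), and for Mrpl23 without shCtrl replicate 2 (0.036). With libraries left out these ranged from -0.22 to 0.36 for Neat1, from -0.52 to 0.13 for Meg3, from -0.10 to 0.46 for Snhg11 and from -0.32 to 0.036 for Mrpl23. Of 150 values of the members under alternatives, 125 kept direction and side of the threshold. Meg3 and Rian had only 14 to 43 counts a library, and how much of their spread is counting error was not tested.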
